A study of Homo sapiens with 59 samples.

Results

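The genes described here are 37 members of the epithelial programme: 4 keratins (KRT7, KRT8, KRT18, KRT19), the adhesion molecule EPCAM, 6 claudins, 7 other tight junction genes, 5 desmosome genes, 7 splicing and transcription regulators, 4 membrane proteases and their inhibitors, and 3 genes of vesicle and membrane trafficking. They were chosen by symbol, and all 37 of 37 symbols were found among the 19084 in the table of expression values. Messenger RNA was sequenced from neural stem cells in 59 libraries. The cells were derived from H9 (WA09), a widely used line of human embryonic stem cells. Every group received FGF8b at 200 ng/mL, was replated with the ROCK inhibitor Y27632, and was then kept with CHIR99021, which inhibits GSK3 and so turns on WNT signalling, for one of 20 lengths of time. These were 2, 4, 6, 8, 10, 12, 14, 16, 18, 20, 22, 24, 30, 36, 42, 48, 54, 60, 66 and 72 h. Every group was then given retinoic acid medium for 4 days before lysis, so each value describes cells 4 days after CHIR99021 ended and not during it. There were 3 libraries per time point, with the replicate labels A1, A2 and B1, and 2 at 48 h. Longer exposure also meant longer culture, and the 2 cannot be told apart; cells without CHIR99021 were not analysed here. Whether libraries of a time point came from separate cultures is not labelled, so the p-values rest on a spread between libraries that may be technical.

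Simple epithelia are built on keratin 8, 18 and 19 filaments that desmosomes anchor to the membrane, and are sealed by claudins, occludin and their scaffolds at tight junctions. The grainyhead-like factors GRHL1 and GRHL2, the OVOL factors and ELF3 are known to maintain expression of such genes, ESRP1 and ESRP2 direct epithelial splicing, and the ZEB and SNAI factors repress the programme in many cells. When ectoderm becomes neural, E-cadherin based adhesion is given up while the tissue stays polarised, and neuroepithelial cells keep the scaffold protein ZO-1, encoded by TJP1, at their apical junctions.

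Values are TPM, which are scaled to gene length and to the total of each library, so the depth of the libraries is unknown. Between 9348 and 13085 genes were at 1 TPM or more in a library (median 12594). Under 10000 were found in B1 of 4 h, B1 of 42 h and A2 of 72 h, and at least 11004 in each of the others. In bulk samples such as these, fewer cells expressing a gene and less RNA per cell cannot be told apart. For tests, the 20 time points were grouped into windows of 4 time points: 2 to 8, 10 to 16, 18 to 24 and 54 to 72 h with 12 libraries each, and 30 to 48 h with 11. Differences are of log2(TPM + 1), a scale on which low genes appear to change less than they did, and were tested with limma over the 15305 genes with at least 1 TPM in at least 3 libraries, at an adjusted p of 0.05. Of the 37 genes, 36 passed that filter and OVOL2 did not. OVOL1 and PKP3 passed it only through libraries of 2 to 8 h, so a lower value later is built into their passing.

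The epithelial genes were high after the shortest exposures and lower with exposures lengthening to 24 h, but to very different depths. Of the 37, 24 had their highest time-point mean at 2 h and 32 at some time from 2 to 8 h. The other 5 were KRT7, highest at 18 h, CLDN1 at 16 h, CLDN10 at 24 h, TJP1 at 30 h and OCLN at 42 h. Of the 31 genes that averaged at least 5 TPM at 2 to 8 h, 10 had under 10% of that mean left at 54 to 72 h, 12 had from 10% to under 50%, and 9 kept 50% or more. Over the whole course, limma's F-test on a spline of hours called 30 of the 36 tested genes changed, where 36.8% of all genes tested were called. The 6 not called were CLDN10, OCLN, TJP1, LSR, DSG2 and GRHL1. OVOL1 and PKP3, for which a fall is built into passing the filter, are among the 30.

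**Figure D1:**
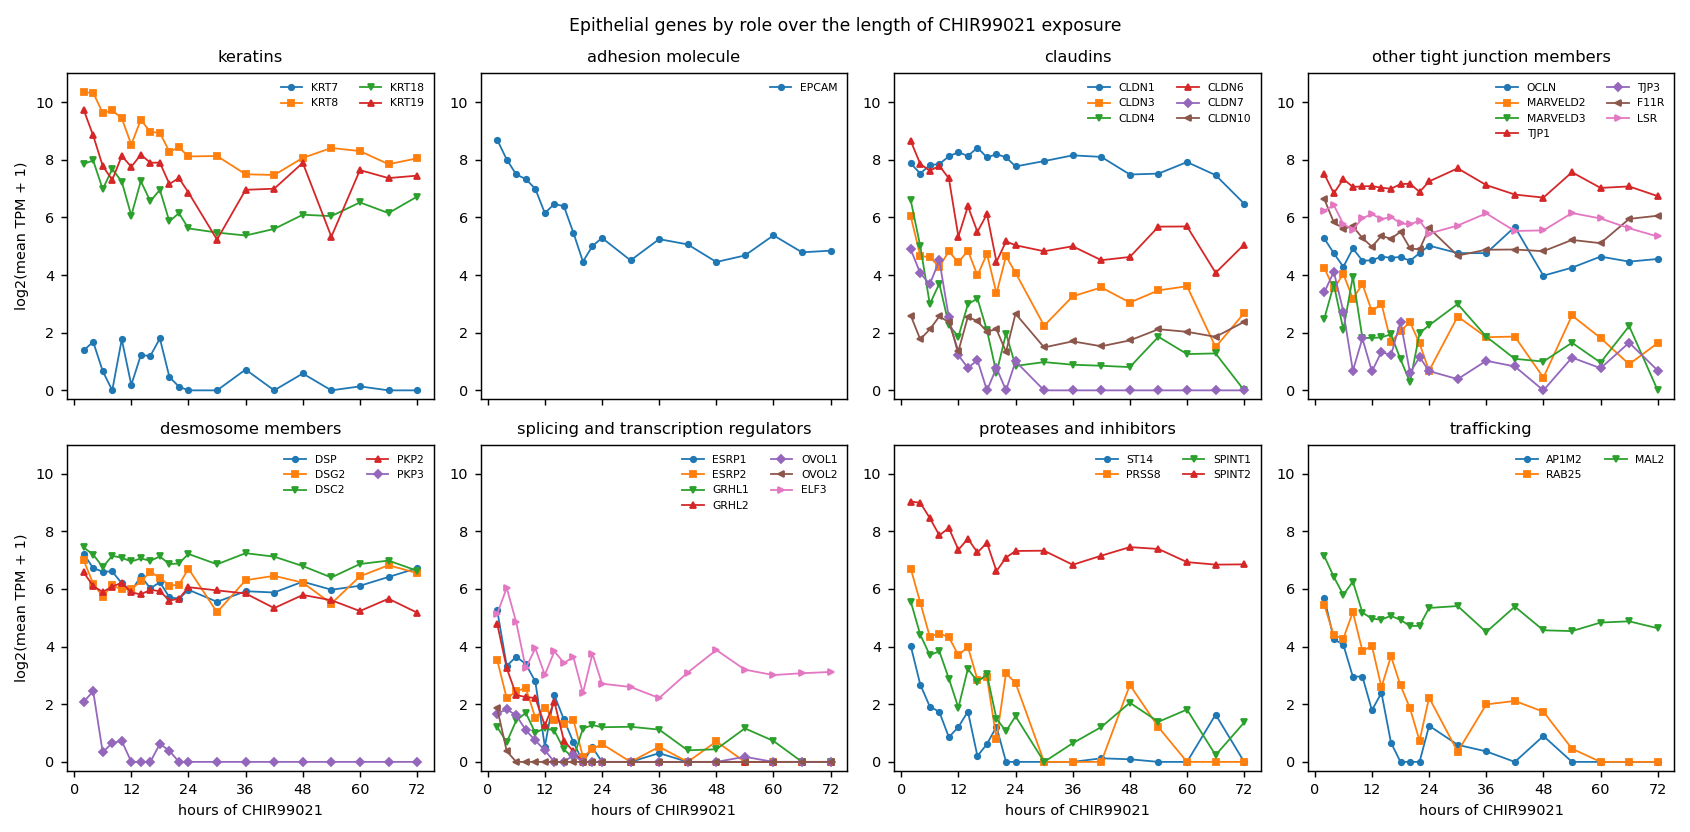
Time-point means of the 37 epithelial genes by role, as log2(mean TPM + 1) against hours of CHIR99021 (points are means of 3 libraries, 2 at 48 h). Most regulators, proteases and trafficking genes came down to or near 0, with ELF3, SPINT2 and MAL2 staying above it, whereas TJP1, LSR and DSG2 were not called changed over the course.

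Promoter sequences are shown for 4 genes that differ in course. The E-box letters CACCTG, read on the other strand as CAGGTG, are in capitals. The ZEB and SNAI repressors, described further on, are known to bind these letters. Of these, ZEB1, ZEB2 and SNAI2 rose from the shortest to the longest exposures, and SNAI1 did not pass the test. Whether they act on the genes shown was not tested. Each sequence runs from 250 bases before to 50 after a gene's start, from RefSeq on GRCh38.p14, 5′ to 3′ on the gene's strand. CLDN7, which was listed at 0 in every library from 30 h on, has 5 matches in one of its 2 windows (chr17:7262429-7262728, minus strand). AP1M2, listed at 0 in every library from 54 h on, has 3 (chr19:10587263-10587562, minus strand). DSG2, which was as high late as early, has 2 (chr18:31497927-31498226, plus strand), and CLDN4, which fell, has none (chr7:73830746-73831045, plus strand). Among the windows matched for the epithelial genes, these of CLDN7 and AP1M2 hold the most matches.
CLDN7: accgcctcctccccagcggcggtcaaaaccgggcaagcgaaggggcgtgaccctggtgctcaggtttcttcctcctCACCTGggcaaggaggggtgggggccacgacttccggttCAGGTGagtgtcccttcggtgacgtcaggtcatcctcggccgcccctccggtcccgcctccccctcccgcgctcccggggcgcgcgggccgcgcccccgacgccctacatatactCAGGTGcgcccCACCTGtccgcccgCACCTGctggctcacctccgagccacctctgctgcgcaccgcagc
AP1M2: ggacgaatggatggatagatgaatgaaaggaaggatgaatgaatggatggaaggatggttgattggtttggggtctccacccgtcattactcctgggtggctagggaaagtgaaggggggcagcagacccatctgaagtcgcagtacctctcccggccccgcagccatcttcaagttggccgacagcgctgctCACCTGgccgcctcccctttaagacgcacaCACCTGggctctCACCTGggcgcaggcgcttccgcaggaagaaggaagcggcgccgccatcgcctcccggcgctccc
DSG2: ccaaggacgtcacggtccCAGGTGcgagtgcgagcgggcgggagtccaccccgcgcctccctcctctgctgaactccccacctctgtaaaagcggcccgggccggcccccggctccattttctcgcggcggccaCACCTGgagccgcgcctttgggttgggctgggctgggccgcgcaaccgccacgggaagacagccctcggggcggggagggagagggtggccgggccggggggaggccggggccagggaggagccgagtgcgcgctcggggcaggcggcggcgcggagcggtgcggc
CLDN4: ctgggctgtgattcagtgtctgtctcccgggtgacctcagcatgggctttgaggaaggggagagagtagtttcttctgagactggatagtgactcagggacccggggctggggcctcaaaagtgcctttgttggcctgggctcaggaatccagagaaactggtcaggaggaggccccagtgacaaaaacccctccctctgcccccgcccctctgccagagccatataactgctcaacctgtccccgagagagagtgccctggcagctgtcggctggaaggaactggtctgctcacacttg

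RefSeq windows were matched for 20 of the 37 genes, 29 windows in all. The E-box letters occurred in 14 of these 29 windows (48.3%), against 20.6% of 35116 windows of all genes. Genes with several windows, such as TJP1, were counted once per window. The member windows were richer in G and C, with a median of 66.0% against 58.7% for all windows. Of the 13 genes with the letters in a window, 10 fell between 2 to 8 h and 54 to 72 h and 3 did not pass the test. Of the 7 without them, 4 fell and 3 did not pass. Among all 36 epithelial genes tested 29 fell, where 15.8% of all genes tested fell. Whether the letters went with a fall was not tested. The grainyhead letters AACCNGTT, on the other strand AACNGGTT, were in 0 of the 29 windows and in 1.73% of all windows. A match is a description of the letters, not a bound site.

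The longest exposures, 54 to 72 h, were compared with the shortest, 2 to 8 h. Of the 36 genes tested 29 fell, where 15.8% of all genes tested fell, and none of the 36 rose, where 14.3% of all genes rose. The 29 include OVOL1 and PKP3, for which a fall is built into passing the filter. The median log2 difference was −1.68 over the 36, against −0.04 over all genes tested. Among roles with several genes the falls were deepest in trafficking genes, with a median of −3.73. Proteases and inhibitors (−2.63), regulators (−2.33) and claudins (−2.24) came next. Falls were intermediate in keratins (−1.34), and least in desmosome genes (−0.48) and the other tight junction genes (−0.36). The medians of regulators and desmosome genes include OVOL1 and PKP3. In 5 genes, KRT8, EPCAM, CLDN7, ESRP1 and PRSS8, every library of 54 to 72 h was below every library of 2 to 8 h, which held for 1.17% of all genes tested.

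**Figure D2:**
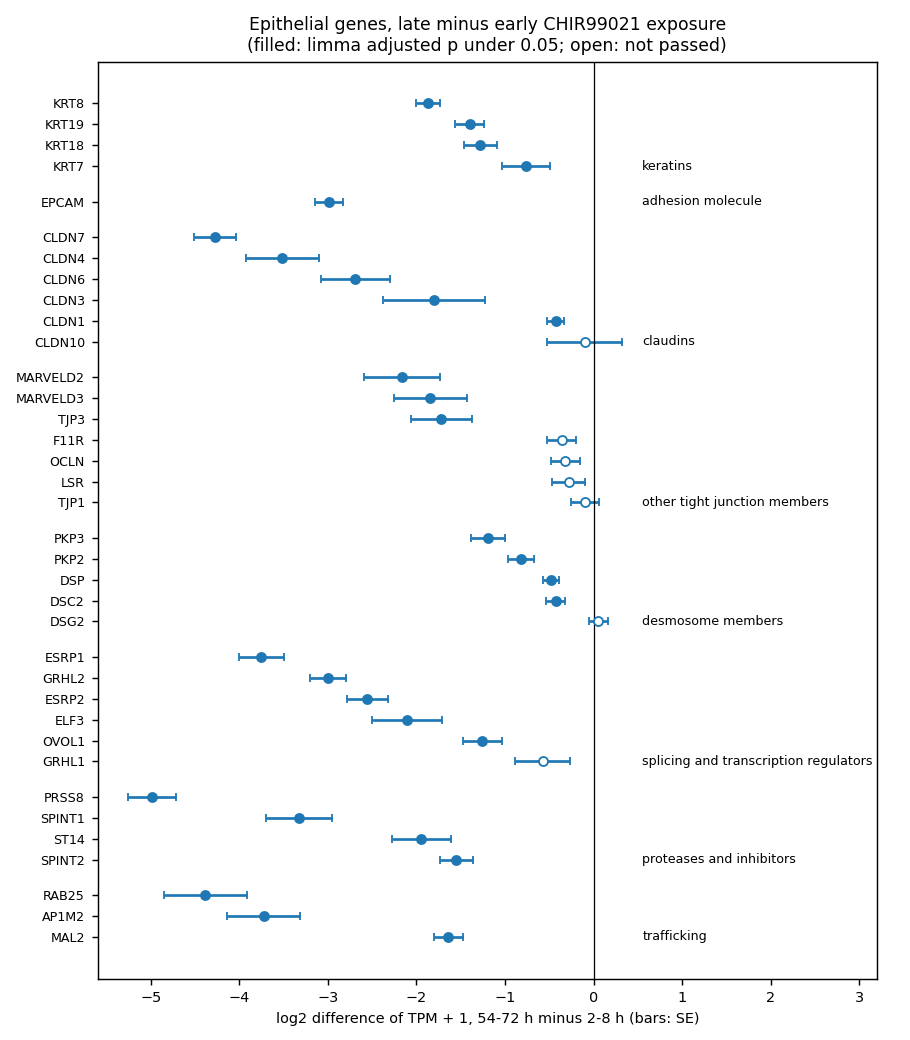
Log2 difference of TPM + 1 for the 36 tested epithelial genes, 54 to 72 h minus 2 to 8 h (points, with SE), grouped by role; filled points passed limma's test at an adjusted p of 0.05. The differences ran from −4.99 for PRSS8 to 0.05 for DSG2, and the 7 open points lie nearest to 0 in their roles.

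Among the keratins, KRT8, which pairs with KRT18 in simple epithelia, had a lowest, median and highest library of 139, 301 and 376 TPM at 54 to 72 h, against 678, 1017 and 1459.7 TPM at 2 to 8 h. The windows did not overlap, and the log2 difference was −1.87 (SE 0.134, limma adjusted p = 1.1e-15). KRT18 averaged 82.5 ± 25.1 TPM late and 202 ± 54.1 TPM early (SD, n = 12 each; log2 difference −1.28, limma adjusted p = 4.1e-07). These 2 keratins thus stayed well expressed at the longest exposures, at 27.3% and 40.8% of their early means. KRT19, a small keratin of simple and ductal epithelia, ran from 34.1 to 252 TPM late, median 159.8, and from 70.25 to 952 TPM early, median 287. Its windows overlapped, with a log2 difference of −1.40 (limma adjusted p = 1.9e-09). KRT7 was low throughout, at no more than 4.31 TPM in any library, and was listed at 0 in 11 of 12 late libraries. Its fall (−0.76, limma adjusted p = 0.028) was lost when any one of 5 libraries was left out.

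EPCAM, a homophilic adhesion protein of epithelial and pluripotent cells, had a lowest, median and highest value of 15.1, 28.6 and 49.97 TPM at 54 to 72 h, against 123, 223 and 433 TPM at 2 to 8 h. No late library reached any early one, and the log2 difference was −2.99 (SE 0.157, limma adjusted p = 3.6e-20). Its late mean was 11.9% of the early mean.

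The claudins, which form the paracellular seal, split. CLDN7 was listed at 0 in all 12 libraries at 54 to 72 h, against 10.1 to 33.8 TPM, median 17.8, at 2 to 8 h (log2 difference −4.27, SE 0.235, limma adjusted p = 1.7e-19). For genes listed at 0 the size of this difference depends on the 1 added before taking logs. CLDN4 averaged 1.36 ± 1.64 TPM late and 36.4 ± 38.9 TPM early, and CLDN6, a claudin of embryonic epithelia and pluripotent cells, 37.2 ± 20.9 and 261 ± 121 TPM (SD, n = 12 each). Their log2 differences were −3.52 and −2.69. CLDN3 fell less (−1.80, limma adjusted p = 0.014), and stood at 7.14 ± 5.39 TPM late, against 32.7 ± 22.9 TPM early. CLDN1 took another course. It averaged 217 ± 31.7 TPM at 2 to 8 h, 301 ± 33.3 TPM at 10 to 16 h, 262 ± 49.6 TPM at 18 to 24 h, 251 ± 53.9 TPM at 30 to 48 h, and was down to 172 ± 65.2 TPM by 54 to 72 h. Its time-point mean was above those of the other 5 claudins from 6 h on. CLDN10 stayed low, at 3.31 ± 2.55 TPM late and 3.92 ± 3.00 TPM early, and did not pass (log2 difference −0.10, SE 0.421).

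Of the other 7 tight junction genes 3 fell. They were the tricellular junction protein MARVELD2 (tricellulin; −2.16), its relative MARVELD3 (−1.84) and the scaffold TJP3 (ZO-3; −1.72). None of the 3 exceeded 33.9 TPM in any library, and between 5 and 7 of the 12 late libraries listed each of them at 0. MARVELD3 held 23.6 TPM in 4 h B1 and 33.9 TPM in 8 h B1, and at most 6.84 TPM in any other early library. TJP3 held 32.9 TPM in 4 h B1, and at most 14.8 TPM in any other early library. Few genes were detected in 4 h B1. The remaining 4, which encode the scaffold ZO-1 (TJP1), occludin (OCLN), the adhesion molecule JAM-A (F11R) and the tricellular protein angulin-1 (LSR), did not pass. TJP1 had 38.4, 136 and 213 TPM as its lowest, median and highest value late, against 66.7, 156 and 181 TPM early, so the windows overlapped almost wholly (log2 difference −0.10, SE 0.159). The lowest value of each window came from a library with few detected genes, 72 h A2 and 4 h B1. OCLN averaged 21.4 ± 4.58 TPM late and 27.8 ± 9.08 TPM early (log2 difference −0.32, SE 0.169), and LSR 54.8 ± 21.4 and 64.8 ± 21.0 TPM (−0.28, SE 0.186). F11R averaged 49.0 ± 18.7 TPM late and 63.1 ± 24.3 TPM early (−0.36, SE 0.166, limma adjusted p = 0.097). The peak of OCLN at 42 h was 1 library: B1, another with few detected genes, held 98.2 TPM, against 23.6 and 27.8 TPM in A1 and A2.

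Desmosomes likewise kept most of their RNA. The plaque protein desmoplakin (DSP) averaged 79.6 ± 17.8 TPM late and 111 ± 25.1 TPM early (log2 difference −0.48), the desmocollin DSC2 106 ± 24.8 and 141 ± 31.4 TPM (−0.43), and the plakophilin PKP2 42.3 ± 13.1 and 71.7 ± 16.3 TPM (−0.82), and all 3 fell. The desmoglein DSG2 had 38.3, 91.8 and 119.98 TPM as its lowest, median and highest value late, against 49.0, 70.4 and 138 TPM early, and did not pass (log2 difference 0.05, SE 0.109). PKP3 was listed at 0 in every library from 30 h on and did not exceed 10.7 TPM before. That highest value came from 4 h B1, a library with few detected genes. The fall of PKP3 was −1.20.

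Among the 7 regulators, GRHL2, ESRP1, ESRP2 and OVOL2 were listed at 0 in all 12 libraries of 54 to 72 h. ESRP1 had a lowest, median and highest early value of 0.56, 12.4 and 46.8 TPM, ESRP2 of 0, 5.03 and 16.4 TPM, and GRHL2 of 0, 7.32 and 29.6 TPM. The log2 differences were −3.75, −2.55 and −3.00 (limma adjusted p = 2.1e-16, 3.7e-12 and 2.5e-16). The time-point mean of GRHL2 was 26.7 TPM at 2 h, 8.56 at 4 h, 3.99 at 6 h and 3.64 at 10 h, and it was listed at 0 in every library from 20 h on. OVOL2 was at 1 TPM or more in only 2 libraries, 5.15 TPM in A2 and 2.72 TPM in B1 at 2 h. ELF3 behaved differently, with 7.59 ± 5.30 TPM late and 33.7 ± 22.3 TPM early (log2 difference −2.10), and was still above 0 in 10 of the 12 late libraries. OVOL1, at 5.28 TPM or less in every library, fell by 1.26 on the log2 scale and was listed at 0 in 11 late libraries. GRHL1 was low throughout and did not pass (−0.57, limma adjusted p = 0.17).

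The membrane proteases matriptase (ST14) and prostasin (PRSS8) act in 1 surface cascade that the Kunitz inhibitors SPINT1 and SPINT2 restrain, and all 4 fell. On the scale of log2(TPM + 1), PRSS8 had the deepest fall of the 36 tested genes, −4.99 (SE 0.273, limma adjusted p = 1.3e-19). It was listed at 0 in 10 late libraries and reached 3.28 TPM at most. Its lowest, median and highest value early were 12.2, 35.9 and 123 TPM, so the windows did not overlap. PRSS8 kept 0.69% of its early mean, while RAB25 kept 0.32%, and CLDN7, ESRP1, GRHL2 and AP1M2 among others kept 0%. SPINT1 averaged 1.48 ± 2.13 TPM late and 23.0 ± 15.7 TPM early, and ST14 0.531 ± 1.84 and 6.44 ± 6.81 TPM, with log2 differences of −3.33 and −1.94. SPINT2 stayed far higher than the other 3, at 129 ± 41.3 TPM late and 403 ± 201 TPM early (log2 difference −1.55).

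Of the trafficking genes, AP1M2, the epithelial subunit of the AP-1 clathrin adaptor, was listed at 0 in all 12 late libraries, against a median of 19.7 and a highest value of 61.8 TPM early, when 2 libraries also listed it at 0. RAB25, a RAB GTPase of the apical recycling route, averaged 0.0933 ± 0.323 TPM late and 29.1 ± 16.8 TPM early. Their log2 differences were −3.73 and −4.39. MAL2, which takes part in transcytosis to the apical surface, kept 25.5 ± 5.75 TPM late, against 88.5 ± 42.1 TPM early (−1.64, limma adjusted p = 4.6e-11).

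The shortest exposures were examined apart, since the early window was not level. At 4 to 8 h, 13 of the 36 genes were lower than at 2 h, where 4.19% of all genes tested were lower, and none was higher, where 1.2% of all genes were. The median log2 difference was −0.94 over the 36 and −0.14 over all genes. Under quantile normalization it was −0.77 over the 36 and −0.0041 over all genes. KRT19 ranged from 70.25 to 599 TPM over the 9 libraries of 4 to 8 h, against 743, 952 and 855 TPM at 2 h (log2 difference −1.86, SE 0.265, limma adjusted p = 5.1e-06). GRHL2 ranged from 0 to 11.04 TPM in them, against 21.2, 29.6 and 29.2 TPM at 2 h (−2.37, limma adjusted p = 4.0e-06). DSG2 ranged from 49.0 to 82.8 TPM, against 138, 127 and 115 TPM at 2 h (−0.99, limma adjusted p = 2.3e-04). In each of these 3 genes every library of 4 to 8 h was below every library of 2 h. This was not particular to them. EPCAM reached at most 291 TPM at 4 to 8 h, against at least 385 TPM at 2 h. SPINT1, which was not called, reached at most 27.1 TPM, against at least 44.1 TPM. The share of all genes separated in this way was not computed. The other 10 genes called lower were EPCAM, CLDN4, F11R, DSP, PKP3, ESRP1, ST14, PRSS8, AP1M2 and MAL2. The count rests on 3 libraries of 2 h: it was 7 without A2, and 8 of the 10, all but EPCAM and ESRP1, lost their call when 1 library was left out. With an added 0.1 in place of 1 before logs it was 8. Set against 4 to 8 h alone, the window of 54 to 72 h was lower for 27 genes, where 14.8% of all genes were lower, and higher for DSG2 (log2 difference 0.30, limma adjusted p = 0.047), where 15.8% of all genes were higher.

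Next, 10 to 16 h was compared with 2 to 8 h: 21 of the 36 genes fell, where 3.67% of all genes fell, and CLDN1 alone rose (log2 difference 0.47, SE 0.0959, limma adjusted p = 6.9e-04), where 3.8% of all genes rose. The 21 include OVOL1 and PKP3, for which a fall is built into passing the filter. The median was −0.96 over the 36 and 0.0057 over all genes. The deepest falls were in CLDN7 (−3.08), CLDN4 (−2.21), ESRP1 (−2.08) and AP1M2 (−2.02). All 4 proteases and inhibitors and 5 of the 6 tested regulators fell in this step, GRHL1 being the other. The call of ELF3 was lost when any one of 12 libraries was left out. Without the 20 libraries labelled A1, 12 genes passed.

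Between 18 to 24 h and 10 to 16 h, 11 falls passed, where 2.74% of all genes fell, and none of the 36 rose, where 3.6% of all genes rose. The median was −0.45 over the 36, against 0.0073 over all genes. These falls were in KRT8, KRT18, KRT19, EPCAM, CLDN7, ESRP1, ESRP2, GRHL2, PRSS8, AP1M2 and RAB25, RAB25 being the deepest at −2.07 (SE 0.469, limma adjusted p = 0.0029). EPCAM fell by 1.43 and came to 33.4 ± 9.50 TPM at 18 to 24 h, against 91.6 ± 27.8 TPM at 10 to 16 h. None of the 7 other tight junction genes and none of the 5 desmosome genes passed in this step. The call of KRT18 was lost when any one of 4 libraries was left out.

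Beyond 24 h of exposure little differed. Between 30 to 48 h and 18 to 24 h, KRT8 (−0.66, limma adjusted p = 0.0034) and PRSS8 (−1.50, limma adjusted p = 8.5e-04) fell, 2 of 36, where 1.11% of all genes fell, and none rose, where 0.451% of all genes rose. Between 54 to 72 h and 30 to 48 h, 3 genes rose, where 2.86% of all genes rose: KRT18 (0.72), F11R (0.81) and DSP (0.40), with limma adjusted p = 0.015, 0.0014 and 0.0037. KRT18 averaged 82.5 ± 25.1 TPM at 54 to 72 h, against 48.0 ± 13.5 TPM at 30 to 48 h, and F11R 49.0 ± 18.7 against 27.2 ± 8.75 TPM (SD, n = 12 and 11). CLDN1 alone fell in that step (−0.57, limma adjusted p = 7.1e-05), where 2.7% of all genes fell. At 72 h it averaged 88.0 ± 16.8 TPM, its lowest time-point mean.

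**Figure D3:**
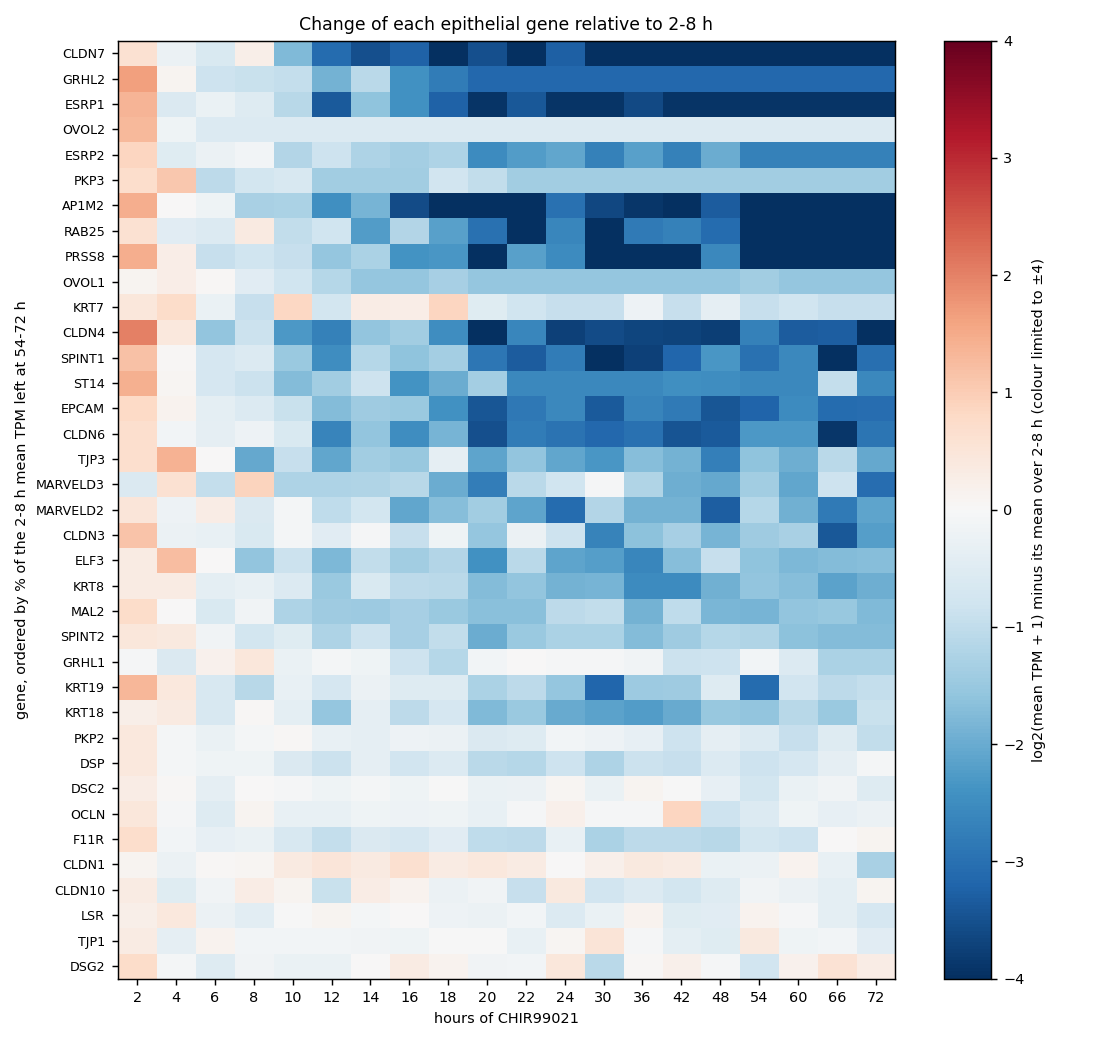
Change of each epithelial gene against its own mean of 2 to 8 h, as a difference of log2(mean TPM + 1) (colour, limited to ±4), by hours of CHIR99021, with genes ordered by the share of the early mean left at 54 to 72 h. CLDN7, GRHL2 and ESRP1 at the top were at 0 late, and DSG2 at the bottom had 104.8% of its early mean.

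For each gene an hour of exposure was sought at which its mean was down to 50% of its mean over 2 to 8 h. The mean had to be at or below 50% at the next time point too. This hour could be set for 24 of the 31 genes with an early mean of at least 5 TPM. It is a description with no test. These hours are lengths of exposure, each read 4 days after CHIR99021 ended, and not times at which RNA was lost. The first were CLDN4 (5.07 h), GRHL2 (5.39 h), ST14 and PRSS8 (5.67 h each), TJP3 (6.65 h), AP1M2 (6.96 h) and ELF3 (7.13 h). Of these ELF3 was the tightest over the labels A1, A2 and B1 taken singly (7.20 ± 0.395 h, SD, n = 3), whereas PRSS8 was at 7.26 ± 2.53 h and GRHL2 at 6.61 ± 2.11 h. A group between 8 and 11 h followed, namely SPINT1, ESRP1, ESRP2, CLDN7, MAL2, MARVELD3, EPCAM and CLDN6. EPCAM, at 10.2 ± 0.686 h, and CLDN7, at 9.40 ± 0.404 h, varied little between labels. RAB25 reached 50% at 12.1 h, MARVELD2 at 14.2 h and SPINT2 at 14.4 h. With all libraries, KRT8 met the rule at 15.7 h, KRT19 at 18.6 h and KRT18 at 18.7 h, hours that were loose. KRT19 was below 50% already at 8 h (mean 156 TPM, 18.4% of that at 2 h), but above it again at 10 h. DSP, F11R and CLDN3 met the rule at 19.6, 19.7 and 23.9 h. F11R and DSP were above 50% again at 24 h, and DSP did not meet the rule without the libraries labelled A1 or those labelled B1. At 72 h, which has no next time point, the mean of CLDN1 was below 50%, and that of PKP2 only through A2, a library with few detected genes (9.23 TPM, against 50.7 in A1 and 45.6 in B1). Several of these hours are loose. MARVELD3 stood at 16.8 h and TJP3 at 10.2 h without the libraries labelled B1, and SPINT1 at 5.81, 6.80 and 3.89 h in A1, A2 and B1 taken singly. Among the keratins, KRT8 stood at 11.04 h and KRT18 at 11.2 h without the libraries labelled A1, and KRT19 at 5.94 h without those labelled B1 and at 5.99 h without the 3 libraries with few detected genes.

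**Figure D4:**
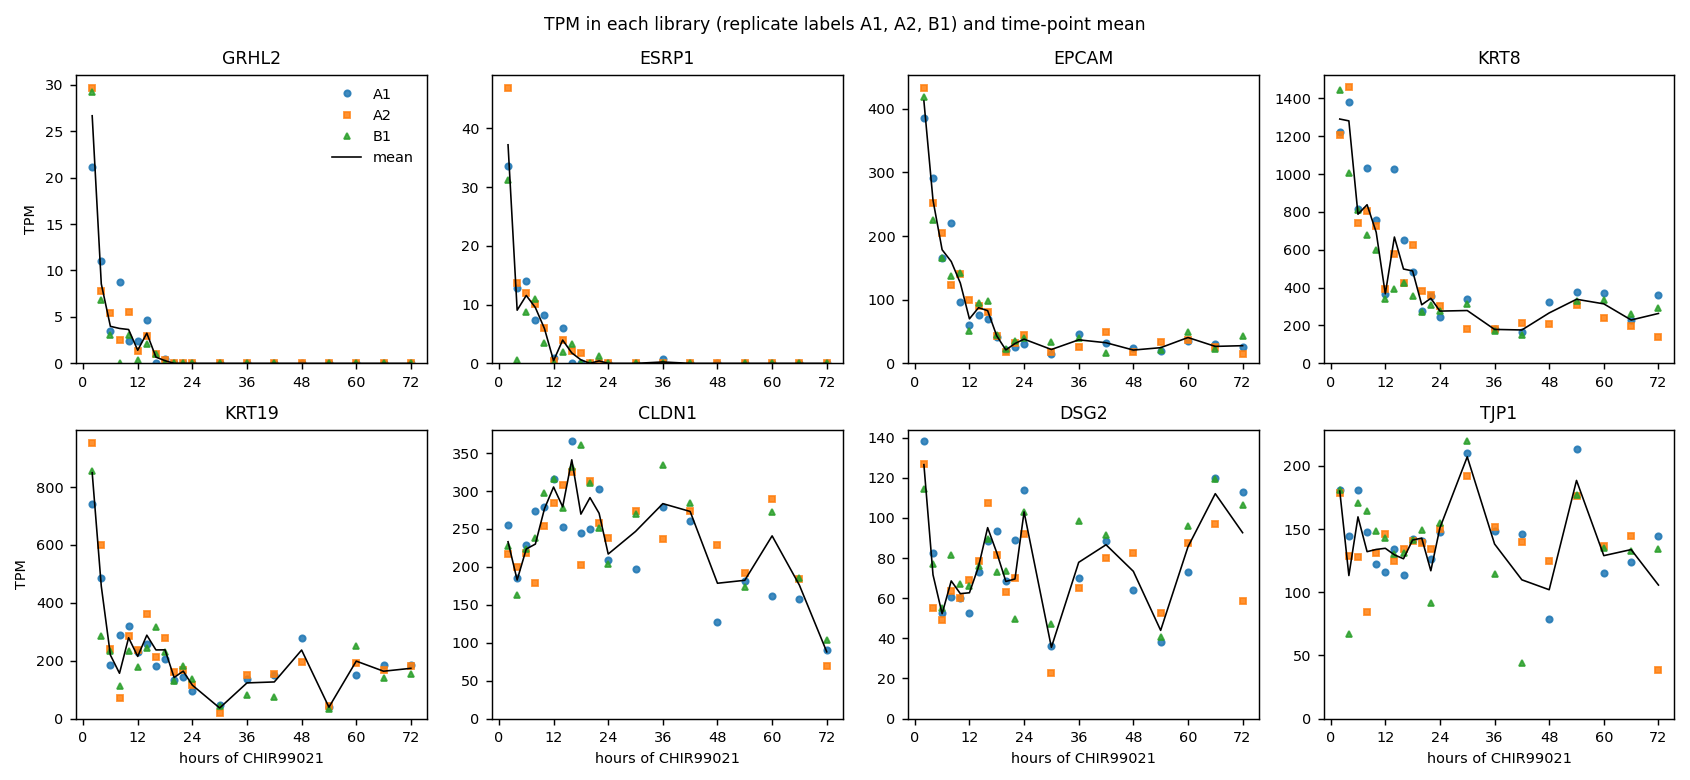
TPM in each library for 8 epithelial genes against hours of CHIR99021 (symbols: replicate labels; line: time-point mean). GRHL2 and ESRP1 were at or near 0 from 24 h on, EPCAM and KRT8 levelled off above 0, KRT19 and DSG2 dipped at 30 and 54 h, and TJP1 was higher at those times.

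Among the 36 genes, KRT19 and DSG2 dipped at 30 and 54 h, a contrast looked at after the values were seen. Against the time points on either side (24, 36, 48 and 60 h), 30 and 54 h were lower for 3 genes, where 4.53% of all genes were lower, and higher for TJP1 alone, where 9.77% of all genes were higher. The median was −0.07 over the 36 and 0.05 over all genes. KRT19 had 46.5, 19.6 and 43.3 TPM at 30 h and 41.4, 42.1 and 34.1 TPM at 54 h, against 83.0 to 279 TPM in the 11 neighbouring libraries (log2 difference −2.08, SE 0.203, limma adjusted p = 1.2e-10). DSG2 had 36.3, 22.9 and 47.3 TPM at 30 h and 38.3, 52.9 and 40.7 TPM at 54 h, against 64.0 to 114 TPM (−1.10, limma adjusted p = 5.7e-08). In both genes all 6 libraries lay below all 11 neighbours, and the share of all genes so separated was not computed. DSC2 was lower by less (−0.40, limma adjusted p = 0.034) and its values overlapped. TJP1 had 176 to 220 TPM in the 6 libraries, against 79.0 to 155 TPM in the neighbours (0.62, limma adjusted p = 0.027). Here too the 6 libraries and the neighbours did not overlap. Of the 2189 genes called in this contrast 68.3% were higher, while under quantile normalization it was 50.8% of 2318 genes and under median-ratio scaling 48.2% of 2175. Under both of these TJP1 lost its call and 5 of the 36 genes were lower. One library left out was also enough to end the call of TJP1 or of DSC2, and without 30 h A1 only 2 of the 36 passed.

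Other genes of the same structures were read from lists beside the 37. Of 14 other keratins, among them the KRT5 and KRT14 pair of stratified epithelia, only 3 passed the filter, and their sum did not exceed 22.1 TPM in any library of 2 to 8 h; 1 fell, KRT17 (−1.03). Of 13 other claudins 9 were tested, 2 fell (CLDN19, −3.05; CLDN23, −1.74) and 1 rose. This was CLDN11, known from myelin and from the Sertoli cell barrier, with 119 ± 27.4 TPM late and 25.3 ± 20.6 TPM early (log2 difference 2.43, SE 0.174, limma adjusted p = 1.2e-15). Every late library, from 90.7 to 188 TPM, was above the highest early one at 85.85 TPM. The share of all genes separated upward in this way is not given here. Of 14 other tight junction and polarity genes, 5 fell, led by the junction plaque protein cingulin (CGN, −3.20) and its relative CGNL1 (−1.68), and 2 rose, the junctional adhesion molecules JAM2 (2.63) and JAM3 (0.47). Of 11 other desmosome and plaque genes 7 were tested: 4 fell, with periplakin (PPL, −1.93) first, then PKP4 (−0.70), PERP (−0.54) and plakoglobin (JUP, −0.44), and DSC3 rose (1.12). The medians of these 4 lists were −0.34, −0.39, −0.07 and −0.44. Over all genes tested, 15.8% fell and 14.3% rose between 2 to 8 h and 54 to 72 h. The few rises in these lists were near that share, and the 2 falls among the claudins were not far from it.

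Of 11 other epithelial regulators and markers 10 were tested and 8 fell, where 15.8% of all genes fell. Their median was −1.16, and none rose. The surface protease TMPRSS2 was listed at 0 in every library from 30 h on, against 20.3 ± 13.8 TPM at 2 to 8 h (log2 difference −4.005, limma adjusted p = 7.1e-16), and CDS1 (−2.03), LAD1 (−1.37) and EHF (−1.27) were among the others. Of 5 known repressors of epithelial genes 3 rose, where 14.3% of all genes rose. ZEB1 averaged 39.9 ± 21.3 TPM late and 9.50 ± 4.04 TPM early (log2 difference 1.85, limma adjusted p = 1.3e-14), ZEB2 53.4 ± 13.9 and 29.1 ± 11.3 TPM (0.89), and SNAI2 19.6 ± 14.1 and 4.58 ± 4.01 TPM (1.88). SNAI1 (−0.10) and TWIST1 (0.27) did not pass.

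Markers of the other cell types these cultures could hold differed over the same lengths of exposure. Between 2 to 8 h and 54 to 72 h, 15.8% of all genes tested fell and 14.3% rose. The 10 neural progenitor markers were all detected, 8 rose and PAX6 fell (−0.47), and their summed TPM ran from 1715 to 2526 late and from 971 to 1512 early, without overlap. Of 10 markers of surface ectoderm and neural plate border 7 fell and none rose. Their sum ran from 0 to 47.7 TPM late, with DLX6 at 0 in all 12 libraries, and from 70.9 to 380.3 TPM early. TFAP2A averaged 0.298 ± 0.603 TPM late and 79.4 ± 73.7 TPM early, and DLX5 0.151 ± 0.523 and 73.7 ± 33.9 TPM. TP63, which defines stratified epithelial precursors, was low throughout, and was listed at 0 in every library of 10 to 16 and of 30 to 48 h. Of 13 endoderm markers 11 were tested and 10 fell; SOX17 and CER1 were listed at 0 in every window, and GATA4, APOA2, AFP and TTR in all late libraries. The endoderm sum ran from 46.8 to 155 TPM late and from 236 to 685 TPM early. Of 7 pluripotency markers 2 fell (ZFP42, −3.74; LIN28A, −0.86) and 1 rose, and their sum ran from 915 to 1420.0 TPM late and from 1497 to 3228 TPM early. The part of these other cell types in the fall of the epithelial genes was not tested.

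**Figure D5:**
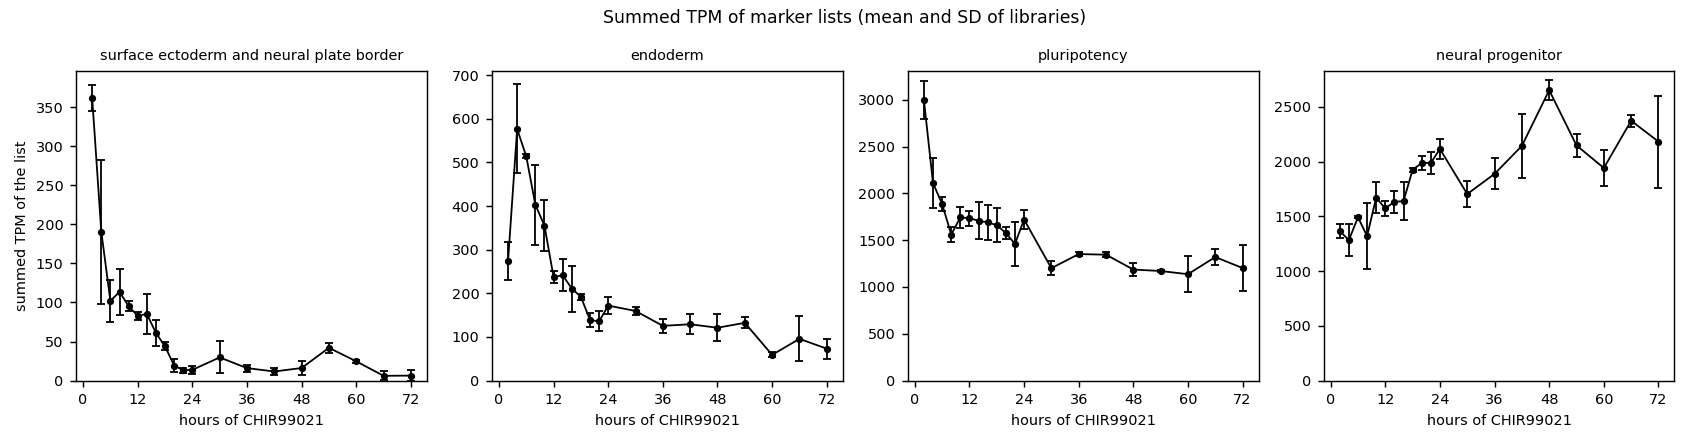
Summed TPM of 4 marker lists (surface ectoderm and neural plate border, endoderm, pluripotency, neural progenitor) against hours of CHIR99021; points are means of libraries and bars SD (n = 3, 2 at 48 h). The surface ectoderm sum was highest at 2 h, the endoderm sum at 4 h, and both were low at 54 to 72 h, when the neural progenitor sum ran from 1715 to 2526 TPM.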

How the data were processed

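The authors deposited TPM per gene symbol for 59 libraries. The submitters' processing notes name RSEM 1.2.3, Bowtie 0.12.8, CASAVA 1.8.2 and the build hg19, with the annotation not given in the sources used here. Per the labels' protocols, 100 ng of RNA per library were selected with oligo-dT beads, amplified by 18 PCR cycles and read singly over 51 bp. RSEM apportions reads between similar genes, so values of close relatives such as the keratins and claudins carry that uncertainty. TPM keep no depth, so no intervals or detection limits were computed.

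The deposited TPM were converted to log2(TPM + 1) and analysed in R 4.3.3 with limma 3.58.1 (moderated tests, intensity trend, Benjamini-Hochberg over the 15305 genes with at least 1 TPM in at least 3 libraries, threshold 0.05). All 59 libraries entered a fit of 20 time-point means, in which windows were contrasted, and a natural spline with 4 df for the course. Tests were tried on simulated data. Figures and summaries used Python 3.11.15, pandas 2.3.3 and matplotlib 3.10.9. RefSeq promoters are on GRCh38.p14, another build than the authors' hg19, and were joined by symbol only.

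The genes and lists were chosen with earlier results of these data known. The contrasts of 4 to 8 h with 2 h, of 30 and 54 h with their neighbours and of 54 to 72 h with 4 to 8 h were chosen after the values were seen. Each of the 37 genes may be named. From the lists beside them, up to 5 genes with the largest late minus early difference among those past the threshold were named, and single genes that did not pass; 1 gene of these lists is not reported here. Alternatives varied the pseudocount, filter, scaling, trend, spline and replicate block and left out labels, libraries and time points.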

Additional observations from a re-analysis of the deposited data

How the results depend on the processing

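The number of epithelial genes called between 54 to 72 h and 2 to 8 h was 29 and stayed between 27 and 30 under all alternatives, and that of the course was 30 and stayed between 27 and 32. Of 3010 alternative values of single genes and contrasts 2880 kept their direction and side of the threshold, 97 lost the threshold, 33 gained it and none reversed. For 4 to 8 h against 2 h, log2(TPM + 0.1) called 8 of the genes.

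Leaving out a replicate label or 1 library moved the epithelial genes called to 3 to 14 for 4 to 8 h against 2 h, 12 to 23 for 10 to 16 h against 2 to 8 h, 5 to 14 for 18 to 24 h against 10 to 16 h, 0 to 3 for 30 to 48 h against 18 to 24 h, 1 to 6 for 54 to 72 h against 30 to 48 h and 2 to 5 for 30 and 54 h against their neighbours. Over all genes, in the same order, the counts ran from 225 to 1099, 425 to 1414, 261 to 1257, 82 to 370, 328 to 1168 and 759 to 2706. They ran from 2956 to 5066 for 54 to 72 h against 2 to 8 h and from 3232 to 6234 for the course. These fits have fewer libraries. The 0 was reached by leaving out a whole label; with limma, 7 of the 36 genes had an unadjusted p under 0.05 in that contrast with all libraries.

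Without the 3 libraries with few detected genes, 1460, 1789, 2008, 466, 1331 and 3736 genes passed in those 6 contrasts, against 826, 1143, 971, 239, 852 and 2189 with them, and the epithelial genes called were 16, 23, 15, 2, 6 and 6. The single libraries that moved a count by over 1.5 times were 72 h A2, without which 370 genes passed between 30 to 48 and 18 to 24 h, those of 2 h in the contrast with 4 to 8 h (354 genes without A1) and 30 h A1 (2 epithelial genes called at 30 and 54 h).

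Replicate labels did not meet the limit set for pairing, a correlation of deviations over 0.1 in every pair. Over 551 pairs of the same label at different time points the median was 0.0049, and 8 were over 0.1. Over 1102 pairs of different labels at different time points the median was −0.0023, and 13 were over 0.1. A limit on every pair is strict, so missing it does not exclude that libraries of a label share a deviation. The replicate block called as many epithelial genes as the fit without it in 6 contrasts (29 for 54 to 72 h against 2 to 8 h) and in the course (30), and 3 in place of 2 for 30 to 48 h against 18 to 24 h. Of the 59 libraries 32, not all, correlated best with their own label, a hint of some shared deviation from the data and not the design.

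TPM keep no depth, so a gene listed at 0 cannot be given a limit.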
